A study of Homo sapiens with 80 samples.

Results

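The genes described here are 37 factors that build ribosomes or supply that work, taken from a list of gene symbols. The list was chosen with earlier results of these data known, so counts of its members are descriptions and not an independent test. All 37 were found in the PRO-seq and RNA-seq tables, which list 17792 and 58735 genes, and 36 in the table of digital gene expression (DGE), which lists 17463 and has no entry for BOP1. By role the list holds 3 subunits of RNA polymerase I, 6 proteins and chaperones of small nucleolar ribonucleoproteins (snoRNPs), 5 nucleolar phosphoproteins and regulators, 7 factors of the small ribosomal subunit, 12 of the large subunit, 1 RNA-modifying enzyme and 3 enzymes of polyamine and pyrimidine synthesis.

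A ribosome starts in the nucleolus, where RNA polymerase I copies the ribosomal DNA into a long precursor RNA. snoRNPs modify and help fold that precursor, and separate sets of assembly factors cut it and carry the small and the large subunit to the cytoplasm. Genes for these factors are among the best known targets of the transcription factor MYC, and lymphoma cells, which divide fast, need them at high levels.

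The study asked how T-cell lymphoma cells become resistant to lenalidomide, a drug that redirects the cereblon ubiquitin ligase to new substrates, ZFP91 among them. Its 42 libraries with gene counts form 14 groups of 3, all from 2 cell lines of anaplastic large cell lymphoma that carry an activated ALK kinase, KI-JK and SU-DHL-1. Casein kinase 2 comes in through its regulatory subunit CSNK2B, which was expressed from a vector in both lines and set against the empty vector. The 38 ChIP-seq samples were not analysed here.

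PRO-seq, which reads RNA still being made, was run on parental SU-DHL-1 cells and on regrown cells, the latter being 3 separate pools made resistant under rising lenalidomide and then grown without drug for at least 2 months. DGE, which counts transcript ends, was run on parental and regrown cells after 18 h with 2.5 µM lenalidomide or with DMSO, its solvent. RNA-seq was run on parental and regrown SU-DHL-1 cells that carried Cas9 and an inducible guide RNA to ZFP91, with 1 µg/ml doxycycline for 96 h (the knockout) or without it. RNA-seq was also run on SU-DHL-1 and KI-JK cells with the CSNK2B vector or the empty vector. The 2 lines were grown in medium with different shares of serum, and nothing in the labels says whether replicates were separate cultures outside the regrown pools, so p-values may measure technical spread there.

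Library totals were 33467869 to 47199672 counts in PRO-seq, 14444523 to 28927808 in RNA-seq and 41571 to 395827 in DGE. The lowest DGE total belonged to parental lenalidomide replicate 3. Levels are given as CPM, counts scaled to a common library size. The 6 markers of this lymphoma (ALK, TNFRSF8, GZMB, PRF1, IL2RA and BATF3) summed to between 3248 and 9075 CPM in every group. The 5 B-cell markers summed to at most 12.03 CPM in RNA-seq, 5 epithelial or stromal markers to at most 19.3 CPM and 5 myeloid markers to at most 138 CPM. ZFP91 RNA was not called lower after doxycycline (log2 change -0.34 ± 0.08, adjusted p = 0.158, in parental cells and -0.12, adjusted p = 0.395, in regrown cells). RNA counts do not measure ZFP91 protein, so the knockout is taken from the labels.

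The letters CACGTG, the E-box that MYC and MAX bind, are shown first because they are a sequence feature and not a measured level. RefSeq promoter windows of build GRCh38.p14 (250 bases before to 50 after a start) were matched for 30 of the 37 members. BOP1, NOLC1, NOP58, RRP12, RRP1B, RRS1 and URB2 had no entry. CACGTG reads the same on both strands. It stood in at least 1 window of 15 of the 30 matched members, against 2396 of all 27305 genes in the table (8.77%, or 7.26% of its 35116 windows) and 1233 of the 9647 matched genes tested in KI-JK (12.8%). The letters with 10 bases on each side are given for 10 members of different roles, 5′ to 3′ on the gene's strand, with CACGTG in capitals.
RRP9 (chr3:51941894-51941919, minus strand): gttcagctgcCACGTGagttctgcgg
FBL (chr19:39846358-39846383, minus strand): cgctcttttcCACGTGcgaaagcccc
DDX21 (chr10:68956606-68956631, plus strand): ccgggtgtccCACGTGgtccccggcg
GNL3 (chr3:52686028-52686053, plus strand): cttcagttcaCACGTGgcgccagcgg
WDR43 (chr2:28894660-28894685, plus strand): cacggacgaaCACGTGgctgcagcgg
UTP20 (chr12:101280085-101280110, plus strand): tttttccgtcCACGTGacccactcag
MRTO4 (chr1:19251809-19251834, plus strand): tcttccgccgCACGTGgattcagcgc
PES1 (chr22:30591882-30591907, minus strand): cttggcagggCACGTGcgggaggaag
SRM (chr1:11060202-11060227, minus strand): ggccgggcccCACGTGgcccctggag
ODC1 (chr2:10448026-10448051, minus strand): gggccccgggCACGTGtgcggcgcgc

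The other 5 members with CACGTG were LYAR, PNO1, BYSL, PUS7 and NOP2. None of the 3 RNA polymerase I subunits had it. It was found in 34 of 122 matched factors of the same pathway outside the list (27.9%) and in 4 of 62 matched genes for ribosomal proteins (6.45%). A match is a string of letters and was not tested as a binding site.

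With the CSNK2B vector, nearly all of these genes were called higher in KI-JK and nearly none in SU-DHL-1. In KI-JK, 35 of 37 members were called higher and 0 lower with the CSNK2B vector, while 18.4% of the 14104 genes tested were called higher and 17.3% lower. The median log2 change was 0.39 over the members and -0.01 over all genes tested. In SU-DHL-1, 1 member was called higher and 0 lower, against 3.39% and 3.34% of 13727 genes. At an unadjusted p under 0.05 there were 9 members, beside 2540 of the 13727 genes. The medians were 0.01 over the members and 0.00 over all genes. In bulk samples, fewer cells of a type and less RNA per cell cannot be told apart. Calls required an adjusted p under 0.05 from edgeR's quasi-likelihood test, adjusted over every tested gene by the Benjamini-Hochberg method.

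CSNK2B itself read 18.6, 15.9 and 18.5 CPM in the KI-JK empty-vector libraries and 82.5, 82.0 and 77.8 CPM with the vector, a log2 change of 2.19 ± 0.06. In SU-DHL-1 it read 30.6, 29.0 and 29.4 CPM and then 248, 253 and 238 CPM, a log2 change of 3.06 ± 0.05. The rise was thus larger in SU-DHL-1, where the members moved less, and the difference between the lines was -0.86 ± 0.08 (adjusted p = 4.10e-09).

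Of 6 tested markers of other cell types, 4 were called lower in KI-JK with CSNK2B and 0 higher, against 17.3% and 18.4% of all genes. The 5 epithelial or stromal markers summed to 5.38 to 29.5 CPM per library with the empty vector and 1.96 to 10.1 CPM with CSNK2B. Of the 3 tested, the keratins KRT8 (-2.37 ± 0.64, adjusted p = 0.00539) and KRT18 (-2.41 ± 0.66) were called lower, with overlapping groups. The 5 B-cell markers summed to 11.1 to 12.5 CPM and then 9.31 to 9.60 CPM, and the 1 tested, PAX5, was called lower (-0.36 ± 0.10). The 5 myeloid markers summed to 137 to 139 CPM and then 130.3 to 136 CPM, and of the 2 tested ITGAM was called lower (-0.74 ± 0.25) and CSF1R was not (-0.04 ± 0.04). In SU-DHL-1, 1 of 3 epithelial or stromal markers (COL1A1, -1.79 ± 0.33) and 0 of 2 myeloid markers were called lower, against 3.34% of all genes. Their part in the members' changes was not tested.

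**Figure D1:**
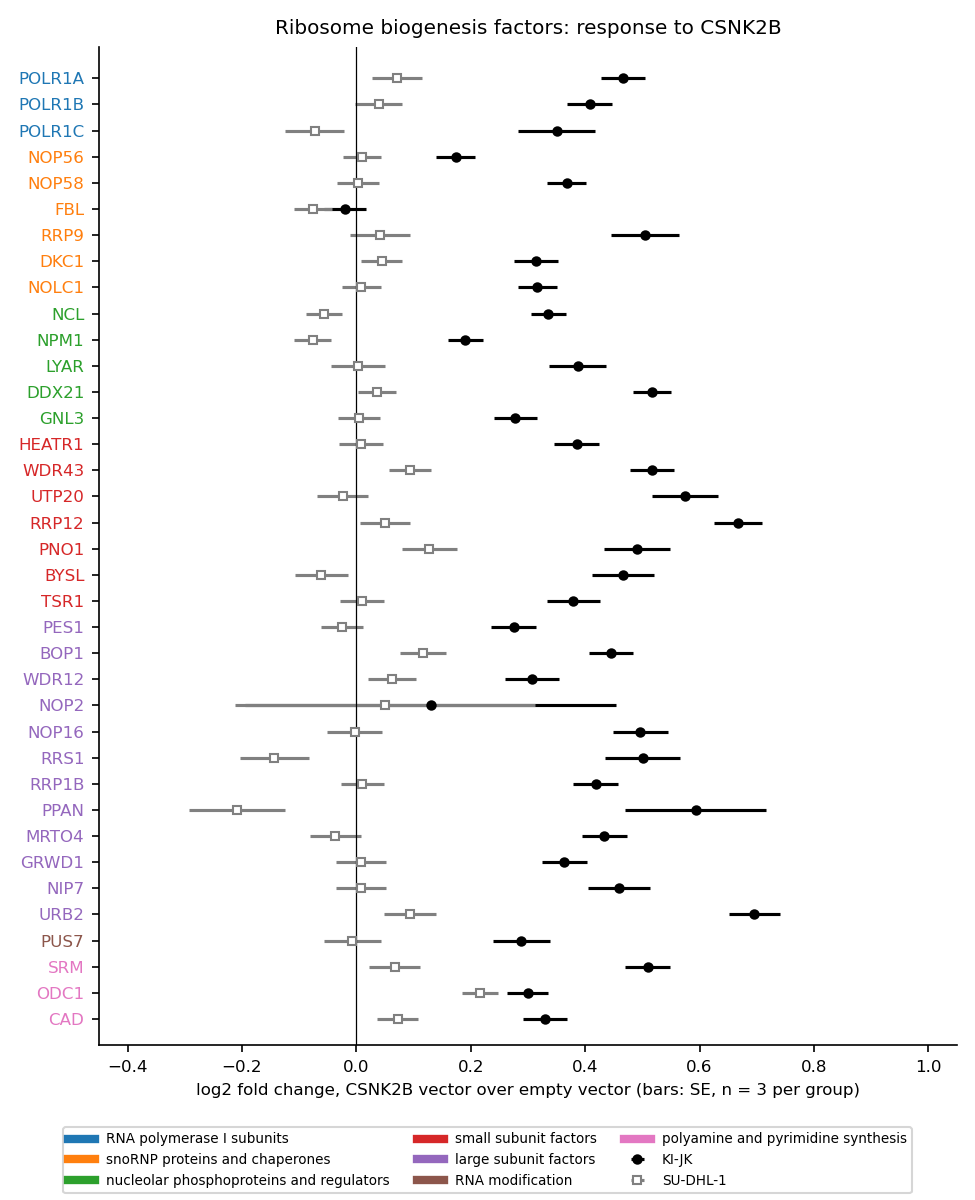
Log2 fold change of each of the 37 members with the CSNK2B vector over the empty vector, in KI-JK (filled circles) and SU-DHL-1 (open squares), with bars for the SE and gene names coloured by role. In KI-JK 35 members are called higher, all but FBL and NOP2, while the SU-DHL-1 values lie around 0 with only ODC1 called.

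RNA polymerase I makes the ribosomal RNA precursor, and its 3 listed subunits all rose in KI-JK. POLR1A, the largest subunit, read 134, 139 and 142 CPM in the empty-vector libraries and 190, 188 and 197 CPM with CSNK2B. Every CSNK2B library lay above every empty-vector library, and the log2 change was 0.47 ± 0.04 (adjusted p = 7.31e-09). POLR1B, the second largest subunit, changed by 0.41 ± 0.04, and POLR1C, a subunit shared with RNA polymerase III, by 0.35 ± 0.07. In SU-DHL-1 the 3 ranged from -0.07 to 0.07 and none was called.

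Of the 6 snoRNP proteins and chaperones, 5 rose in KI-JK. RRP9, a protein of the U3 snoRNP, read 50.4, 43.7 and 45.6 CPM and then 66.4, 69.3 and 62.6 CPM, a log2 change of 0.50 ± 0.06. NOP58, a core protein of box C/D snoRNPs, changed by 0.37 ± 0.03, NOLC1, a chaperone of snoRNPs, by 0.32 ± 0.03, and DKC1, the pseudouridine synthase of box H/ACA snoRNPs, by 0.31 ± 0.04. NOP56, the partner of NOP58, had the smallest called change of any member, 0.17 ± 0.03 (adjusted p = 3.11e-04).

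FBL, the methyltransferase of the same box C/D particles as NOP56 and NOP58, was not called. It read 341, 345 and 334 CPM in the KI-JK empty-vector libraries and 352, 332 and 323 CPM with CSNK2B. The groups overlapped, and the log2 change was -0.02 ± 0.04 (adjusted p = 0.725). Its window holds CACGTG, as printed above, and so do those of RRP9 and DDX21, which rose.

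All 5 nucleolar phosphoproteins and regulators rose in KI-JK. DDX21, an RNA helicase that acts in precursor RNA processing, read 503, 501 and 512 CPM and then 724, 712 and 736 CPM. The groups were far apart for their spread, and the log2 change was 0.52 ± 0.03 (adjusted p = 9.29e-11). NCL, the abundant nucleolar protein nucleolin, stood at 1821, 1866 and 1780 CPM and then at 2321, 2298 and 2286 CPM (0.34 ± 0.03). LYAR, a nucleolar zinc finger protein, changed by 0.39 ± 0.05 and GNL3, the nucleolar GTPase nucleostemin, by 0.28 ± 0.04.

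NPM1, nucleophosmin, is the gene whose fusion to ALK marks most lymphomas of this kind. It read 1682, 1684 and 1623 CPM in KI-JK with the empty vector and 1899, 1871 and 1927 CPM with CSNK2B, a log2 change of 0.19 ± 0.03 (adjusted p = 4.18e-05). Its groups did not overlap, yet its change was the second smallest among the called members. The annotation names 49 pseudogenes after NPM1, and gene counts do not separate the fusion transcript from NPM1 itself, so its counts are uncertain in every comparison.

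The 7 small subunit factors all rose in KI-JK and had a median log2 change of 0.49. RRP12, which acts in the maturation and export of precursor particles, read 142, 146 and 152 CPM and then 235, 243 and 221 CPM. It was 1.59-fold higher (log2 change 0.67 ± 0.04, adjusted p = 7.58e-11), with no overlap. UTP20, a large scaffold protein of the early particle, changed by 0.57 ± 0.06, WDR43, of the same early particle, by 0.52 ± 0.04 and HEATR1, which also supports polymerase I transcription, by 0.39 ± 0.04. PNO1, which binds the late precursor, changed by 0.49 ± 0.06, BYSL by 0.47 ± 0.05 and TSR1, of the late cytoplasmic particle, by 0.38 ± 0.05.

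Of the 12 large subunit factors, 11 rose in KI-JK. URB2, which acts early in large subunit assembly, had the largest change of any member. It read 72.7, 76.0 and 80.5 CPM and then 122, 125 and 125 CPM, 1.62-fold higher with no overlap (log2 change 0.70 ± 0.05, adjusted p = 1.48e-10). The 3 members of the PeBoW complex, which processes the large subunit precursor, changed by 0.44 ± 0.04 (BOP1), 0.31 ± 0.05 (WDR12) and 0.28 ± 0.04 (PES1).

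The other called large subunit factors fell between those values. MRTO4, a placeholder for the stalk, changed by 0.43 ± 0.04, RRP1B by 0.42 ± 0.04 and NIP7 by 0.46 ± 0.05. NOP16 changed by 0.50 ± 0.05, RRS1, which helps bring in the 5S particle, by 0.50 ± 0.07 and GRWD1, a histone-binding protein, by 0.36 ± 0.04. PPAN changed by 0.59 ± 0.12 but was thinly counted, at 5.45 to 6.76 CPM with the empty vector and 9.10 to 9.87 CPM with CSNK2B.

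NOP2, an RNA methyltransferase of the large subunit, was the second member not called. In RNA-seq it held only 1.15 to 2.46 CPM in KI-JK, and its log2 change of 0.13 ± 0.32 (adjusted p = 0.793) says little. The same gene stood at 67.7 CPM or more in every PRO-seq library, so its RNA-seq counts are treated as uncertain. No other gene listed for PRO-seq overlaps NOP2, and the longer RNA-seq list was not checked for overlaps. How reads of overlapping genes were counted in RNA-seq is not given in the sources used here.

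PUS7, a pseudouridine synthase, rose by 0.29 ± 0.05 in KI-JK. All 3 metabolic members rose as well. SRM, spermidine synthase, read 167, 160 and 174 CPM and then 232, 243 and 239 CPM, a log2 change of 0.51 ± 0.04 (adjusted p = 2.36e-09). CAD, which runs the first steps of pyrimidine synthesis, changed by 0.33 ± 0.04.

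ODC1, ornithine decarboxylase, the rate-limiting enzyme of polyamine synthesis, was the only member called in both lines. It read 406, 388 and 399 CPM and then 497, 473 and 501 CPM in KI-JK (0.30 ± 0.04, adjusted p = 8.50e-07). In SU-DHL-1 it read 2284, 2240 and 2155 CPM and then 2645, 2581 and 2477 CPM (0.22 ± 0.03, adjusted p = 4.43e-05). Neither line's groups overlapped, and the 2 responses differed by 0.10 ± 0.05 (adjusted p = 0.204).

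**Figure D2:**
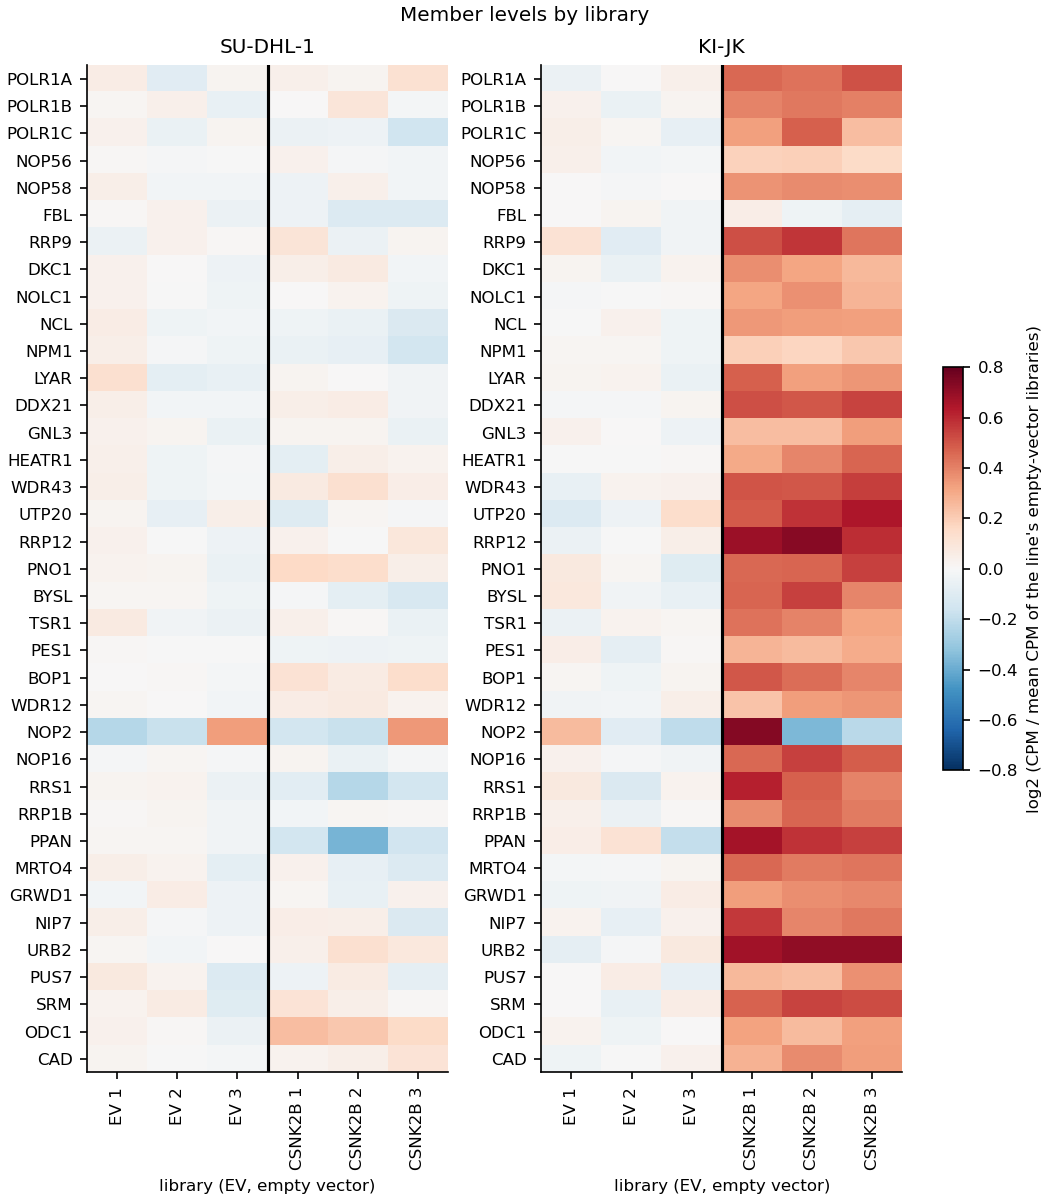
Level of each member in each of the 12 CSNK2B libraries, as log2 of its CPM over the mean CPM of the same line's empty-vector libraries (colour scale, red higher, blue lower). In KI-JK the 3 CSNK2B libraries are red for every member but FBL and NOP2, and in SU-DHL-1, where ODC1 is the only member called, most shades are pale.

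The difference between the lines was tested directly. The CSNK2B response was larger in KI-JK for 34 of 37 members and smaller for 0, against 10.7% and 8.44% of the 15564 genes tested. The median difference was 0.39 over the members and 0.00 over all genes. The largest were PPAN (0.81 ± 0.14), RRS1 (0.66 ± 0.09), RRP12 (0.63 ± 0.06), UTP20 (0.61 ± 0.08) and URB2 (0.61 ± 0.06). NOP56 (0.17 ± 0.05) and WDR12 (0.26 ± 0.06) lost the call under some alternatives, with adjusted p up to 0.236 and 0.0639. The 3 not called were ODC1, FBL (0.07 ± 0.05, adjusted p = 0.418) and NOP2 (0.09 ± 0.42, adjusted p = 0.932). Each line was counted in a table of its own, so line, serum and table cannot be told apart in this difference.

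Groups did not overlap, with CSNK2B higher, for 35 of 37 members in KI-JK, where the same held for 23.2% of genes tested. In SU-DHL-1 that count was 7 higher and 4 lower, beside 9.78% and 12.3% of genes. The 7 were WDR43, PNO1, BOP1, WDR12, URB2, ODC1 and CAD, and except for ODC1 their log2 changes were 0.06 to 0.13 and missed the threshold. The members' summed share of all counts was 0.899 to 0.905% in the KI-JK empty-vector libraries and 1.11 to 1.12% with CSNK2B. In SU-DHL-1 it was 1.28 to 1.31% and then 1.31 to 1.33%.

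With the empty vector the members stood lower in KI-JK than in SU-DHL-1 more often than higher. Of 37, 23 were called lower and 8 higher, against 38.7% and 40.1% of 14786 genes, and the median difference was -0.27 over the members and 0.01 over all genes. ODC1 differed most (log2 difference -2.47 ± 0.04), then TSR1 (-1.63 ± 0.04), NIP7 (-1.40 ± 0.04), PPAN (-1.40 ± 0.11) and FBL (-1.39 ± 0.04). RRP12 (0.78 ± 0.04) and SRM (0.69 ± 0.04) stood higher in KI-JK. MYC stood at 137 to 139 CPM in KI-JK and at 291 to 309 CPM in SU-DHL-1.

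The wider pathway moved with the members in KI-JK. Of 139 other biogenesis factors, 138 were tested. Of these, 104 were called higher and 4 lower, against 18.4% and 17.3% of all genes, and their median was 0.28. Small subunit assembly stood out by count, with 41 of 45 higher and 0 lower, and was led by NOL6 (0.62 ± 0.04) and PDCD11 (0.51 ± 0.03), both of the early small subunit particle. Large subunit assembly had 36 of 48 higher and 1 lower, the RNA polymerase I machinery 11 of 17 and 1, snoRNP assembly 7 of 12 and 2, and the exosome and rRNA nucleases 9 of 16 and 0. The 4 that fell were PIH1D1 (-0.33 ± 0.04) and RUVBL2 (-0.10 ± 0.04), of the complex that assembles snoRNPs, TAF1C (-0.21 ± 0.07), of the polymerase I promoter factor, and NOP53 (-0.18 ± 0.04), of the large subunit. In SU-DHL-1, 8 of 139 rose and 0 fell, against 3.39% and 3.34% of all genes. Among the 8 were AATF (0.28 ± 0.04) and DDX52 (0.29 ± 0.04) of the small subunit.

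**Figure D3:**
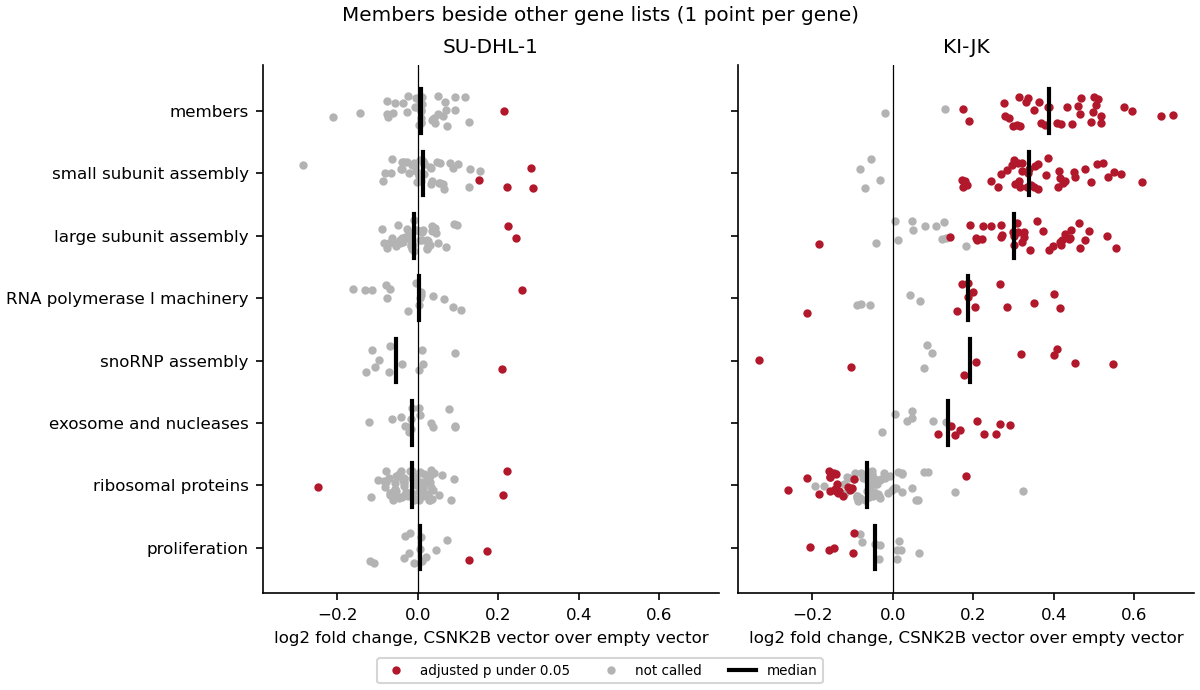
Log2 fold change with the CSNK2B vector of the members, 5 lists of other biogenesis factors, cytosolic ribosomal proteins and proliferation genes, 1 point per gene, in SU-DHL-1 (left) and KI-JK (right), with medians as bars and called genes in red. In KI-JK the biogenesis lists lie mostly above 0, from a median of 0.14 (exosome and nucleases) to 0.39 (members), and the ribosomal proteins have a median of -0.06.

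The structural proteins of the ribosome did not move with the factors that assemble it. In KI-JK 19 of 78 cytosolic ribosomal protein genes were called lower and 1 higher, with a median of -0.06. Over all genes tested, 17.3% were called lower and 18.4% higher. The 1 called higher was RPS26 (0.18 ± 0.05). In SU-DHL-1, 2 of 78 were called higher and 1 lower, near the shares of all genes (3.39% and 3.34%). Of 15 proliferation genes, 5 were called lower in KI-JK and 0 higher, against the same 17.3% and 18.4% of all genes. CDK1 changed by -0.20 ± 0.04 and MKI67 by 0.01 ± 0.04. Many ribosomal protein genes have near-identical pseudogenes, and how the counting treated them is not given in the sources used here.

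MYC RNA read 138, 137 and 139 CPM in KI-JK with the empty vector and 162, 160 and 159 CPM with CSNK2B. Its log2 change of 0.22 ± 0.04 (adjusted p = 6.66e-05) was smaller than that of most members. MAX, its partner, rose by 0.28 ± 0.06, and MXI1 and MXD3, which pair with MAX in its place, fell by 0.92 and by 1.12 on the log2 scale. In SU-DHL-1, MYC changed by 0.07 ± 0.04 (adjusted p = 0.288; the difference between the lines was 0.16 ± 0.05, adjusted p = 0.0307), MXI1 fell by 0.31 (adjusted p = 0.0433) and MXD3 was not called. Among members, those with CACGTG had a median change of 0.43 in KI-JK (13 of 15 called higher) and matched members without it 0.36 (15 of 15). Over all matched genes tested, the medians were 0.05 with it and 0.00 without. Of the catalytic subunits, CSNK2A1 changed by 0.23 ± 0.04 and CSNK2A2 by 0.26 ± 0.05 in KI-JK, and neither was called in SU-DHL-1.

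Between regrown and parental SU-DHL-1 cells the members' median log2 change was 0.15 in PRO-seq (0.02 over all genes; 26 of 37 above 0), -0.11 in RNA-seq (-0.00; 15 of 37 above 0) and 0.02 in DGE (0.01; 20 of 35 above 0). Members took 0.358% to 0.385% of PRO-seq counts in parental and 0.393% to 0.435% in regrown libraries, which do not overlap. In PRO-seq, 7 of 37 were called higher and 4 lower than in parental cells, against 14.0% and 16.2% of the 16456 genes tested. In RNA-seq without doxycycline, 4 were called higher and 11 lower, against 22.6% and 21.1% of 13379. In DGE with DMSO, 35 were tested, 2 were called higher and 1 lower, against 2.91% and 3.30% of 5941. These shares are near or below those of all genes, apart from the RNA-seq count lower (29.7% of members) and the PRO-seq and DGE counts higher (18.9% and 5.71%).

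RRP12 rose in all 3 assays. Nascent RNA read 60.7, 45.3 and 51.9 CPM in parental cells and 104.5, 81.9 and 84.5 CPM in regrown cells (log2 change 0.78 ± 0.13, adjusted p = 0.00145). RNA-seq read 165, 133 and 137 CPM and then 249, 222 and 253 CPM (0.73 ± 0.10, adjusted p = 4.91e-05), and DGE 68.7, 73.8 and 72.0 CPM and then 123, 138 and 147 CPM (0.91 ± 0.25, adjusted p = 0.0245). In none of the 3 did the groups overlap. Over the alternative settings its DGE adjusted p reached 0.139.

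GNL3 was called in PRO-seq and DGE. Nascent RNA read 74.7, 69.1 and 66.5 CPM in parental cells and 118, 96.4 and 118 CPM in regrown cells (0.66 ± 0.11, adjusted p = 0.001004), and DGE 115, 119 and 108 CPM and then 187, 298 and 269 CPM (1.12 ± 0.23, adjusted p = 0.00166). In RNA-seq it read 171, 167 and 167 CPM and then 175, 225 and 187 CPM, above parental in every pool but not called (0.21 ± 0.10). NOLC1 was called in PRO-seq (0.56 ± 0.11) and RNA-seq (0.57 ± 0.08).

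NOP56 fell in all 3 assays. It read 167, 142 and 192 CPM in parental and 140, 124 and 122 CPM in regrown cells by PRO-seq (-0.38 ± 0.12, adjusted p = 0.0369), 335, 344 and 398 CPM and then 194, 228 and 199 CPM by RNA-seq (-0.79 ± 0.10, adjusted p = 1.73e-05), and 739, 647 and 807 CPM and then 358, 516 and 556 CPM by DGE (-0.63 ± 0.18, adjusted p = 0.0322). Every regrown pool lay below every parental library. The PRO-seq and DGE calls were lost under some alternative settings, with adjusted p up to 0.119 and 0.192.

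PRO-seq and RNA-seq used separate libraries and can be set side by side. Called in both and in the same direction were 7 members, RRP12, NOLC1 and CAD higher and NOP56, NOP16, BYSL and TSR1 lower, and 0 were called in opposite directions. These are 18.9% of members, against 17.0% of the 11928 genes tested in both assays, a share near the background. Of the 11 PRO-seq calls, 3 (GNL3, NOLC1 and RRP12) were kept in each of 12 alternative settings, and of the 15 RNA-seq calls 7 in each of 14. Without parental replicate 1, regrown replicate 2 or regrown replicate 3, no member was called lower in PRO-seq. NCL (0.38 ± 0.10), GRWD1 (0.32 ± 0.09) and NOP2 (0.33 ± 0.10) were called higher in PRO-seq beside GNL3 but not in RNA-seq. HEATR1 (0.34 ± 0.11) was called higher, and POLR1C (-0.89 ± 0.11), ODC1 (-0.52 ± 0.10), PUS7 (-0.52 ± 0.11), PNO1, NIP7, DKC1 and PPAN lower, in RNA-seq alone. Over the 37 members the changes in the 2 assays had a Spearman rho of 0.586, given as a description since the genes share their libraries.

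Where a member lies on its chromosome went along with its change in regrown cells. NOP56 (chr20:2652632-2658393 on hg38) lay among genes whose median PRO-seq change was -0.89, over the 24 nearest genes tested, of which 0 rose. The casein kinase gene CSNK2A1, on the same chromosome, changed by -0.98 ± 0.11. BYSL (-0.33 ± 0.10) and NOP16 (-0.29 ± 0.10) lay among genes with medians of -0.51 and -0.47. RRP12, GNL3 and NOLC1 lay among genes with medians of 0.31, 0.36 and 0.33, less than their own changes. NCL (0.38) lay among genes with a median of 0.00 and NPM1 (0.31 ± 0.13, not called) among genes with a median of -0.38. Over members, a gene's change and its neighbours' median had a rho of 0.762 (PRO-seq), 0.648 (RNA-seq) and 0.696 (DGE). This rho was not computed over all genes, so it does not set members apart from other genes. Some members also share neighbours, as NOP58 and WDR12 do in DGE. Copy number was not measured here, and its part in these changes was not tested.

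**Figure D4:**
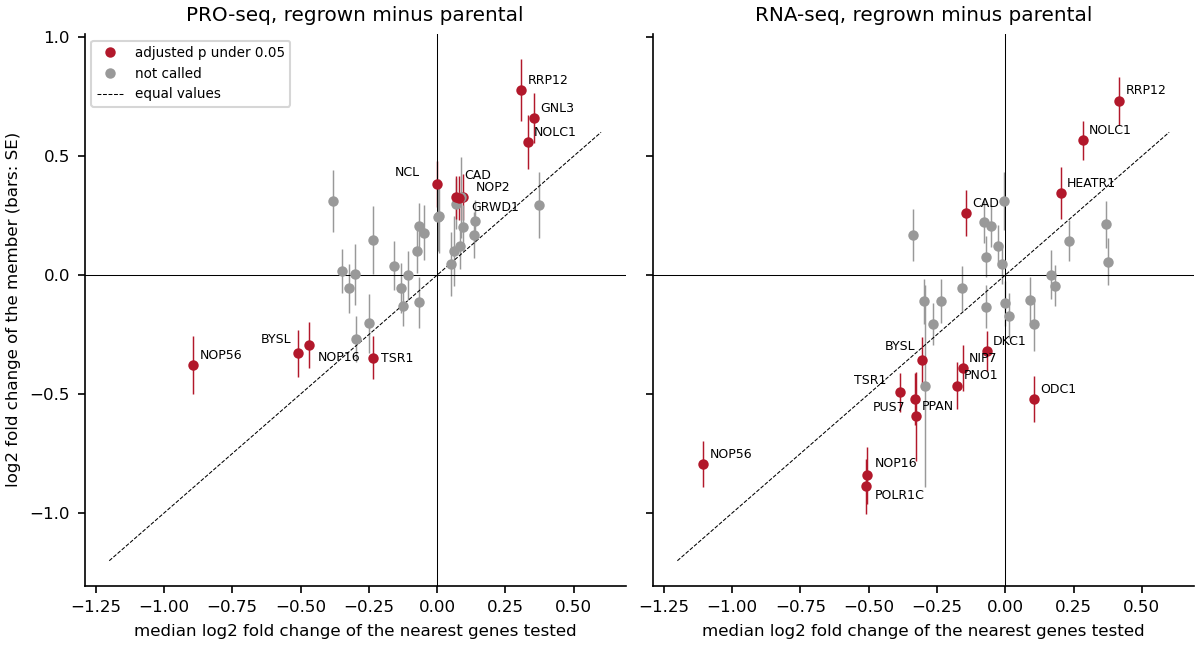
Log2 fold change of each member in regrown over parental cells (y axis, bars for SE) against the median change of its 24 nearest genes tested (x axis, 22 for DKC1 in RNA-seq), in PRO-seq (left) and RNA-seq (right), with called members in red and a dashed line of equal values. NOP56 lies far to the lower left and RRP12 to the upper right, and in PRO-seq 32 of 37 members lie above the line, in RNA-seq 16.

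A member's PRO-seq change in regrown cells was above the median change of its neighbours for 32 of 37 members (86.5%). The same held for 49.8% of all 16407 genes placed. In RNA-seq the count was 16 of 37 (43.2% against 49.9%) and in DGE 22 of 35 (62.9% against 49.9%). Ribosomal protein genes were called higher in PRO-seq for 43 of 78 and lower for 0 (median 0.38), and in RNA-seq for 11 and 14. Of the other biogenesis factors, 31 of 139 were called higher and 8 lower in PRO-seq, and 26 and 33 of 138 in RNA-seq. Over all genes the shares were 14.0% higher and 16.2% lower in PRO-seq, and 22.6% and 21.1% in RNA-seq.

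CSNK2B was higher in the regrown cells themselves, on the log2 scale by 2.05 ± 0.14 (PRO-seq), 0.86 ± 0.16 (RNA-seq) and 1.70 ± 0.16 (DGE). MYC was called in none of the 3 (0.08 ± 0.12, -0.20 ± 0.10 and 0.12 ± 0.24). These regrown pools are SU-DHL-1 cells, and with the CSNK2B vector in SU-DHL-1 RRP12, GNL3 and NOLC1 changed by 0.05 ± 0.04, 0.00 ± 0.04 and 0.01 ± 0.03. Pools made resistant under lenalidomide and cells given a vector differ in more than CSNK2B. The part of CSNK2B in the pools' changes was not tested.

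Lenalidomide for 18 h called no member in DGE. The counts were 0 of 35 in parental cells, 0 of 35 in regrown cells and 0 of 35 for the difference between the responses by edgeR's quasi-likelihood test, against 0.845%, 0.230% and 0% of genes. DESeq2 tested 36 members and called 0 in each of the 3. At an unadjusted p under 0.05 edgeR had 4, 1 and 2 members, beside 503 of 5796, 283 of 5661 and 285 of 6838 genes. DESeq2 had 0, 1 and 2 members, beside 234 of 15901, 185 of 15539 and 197 of 16989 genes. In parental cells 30 of 35 members had log2 changes below 0, with a median of -0.22 beside 0.00 over all 5796 genes tested. Without replicate 3 of the drug group, the shallow library, 27 of 35 were below 0 and the median was -0.21. At an unadjusted p under 0.05 edgeR then had 8 members, beside 776 of 6227 genes. In regrown cells 23 of 35 members were below 0, with a median of -0.10. In parental cells with all libraries, 50 of 117 other biogenesis factors and 0 of 15 proliferation genes were above 0 (medians -0.08 and -0.28).

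Single members in this comparison rested on few counts. GNL3 had the lowest p in parental cells, with 115, 119 and 108 CPM in DMSO and 152, 204 and 179 CPM with drug (0.65 ± 0.25, adjusted p = 0.378), and these groups did not overlap. RRP9 changed by -0.90 ± 0.38 (adjusted p = 0.455). The 3 GNL3 drug libraries together held 134 counts. In regrown cells ODC1 had the lowest p (0.49 ± 0.18, adjusted p = 0.708).

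The comparison of ZFP91 knockout with no doxycycline called no member in parental cells and 20 in regrown cells, where the changes went along with gene length. All knockout libraries had doxycycline and the libraries set against them had none, so doxycycline and knockout cannot be told apart. In parental cells 0 of 37 were called, against 0.427% of 13354 genes. At an unadjusted p under 0.05 edgeR had 7 members, beside 1117 of the 13354 genes. DESeq2 also called 0 members and had 8 at that level, beside 971 of 27236 genes. The median was 0.11 beside 0.01 over all genes, and 33 of 37 values were above 0. RRP12 read 165, 133 and 137 CPM without doxycycline and 234, 158 and 196 CPM with it, which overlap. Groups did not overlap, knockout higher, for 9 of 37 (8.20% of all genes), and knockout lower for 1 (7.47%).

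In regrown cells 13 of 37 members were called higher and 7 lower with the knockout, against 16.3% and 15.7% of 13107 genes. POLR1C read 23.4, 26.2 and 22.1 CPM without doxycycline and 44.99, 40.5 and 42.8 CPM with it (0.83 ± 0.10, adjusted p = 3.34e-04). NOP16 (0.77 ± 0.11), NOP56 (0.59 ± 0.08) and GNL3 (0.53 ± 0.09) rose next, then PUS7, RRS1, PNO1, LYAR, RRP9, DKC1, NIP7, SRM and NPM1 by 0.28 to 0.49. POLR1A read 333, 259 and 307 CPM and then 179, 181 and 199 CPM (-0.69 ± 0.10, adjusted p = 5.24e-04). RRP12 fell by 0.44, HEATR1 by 0.43, NCL by 0.26, CAD by 0.26, DDX21 by 0.24 and GRWD1 by 0.23 on the log2 scale. POLR1A and POLR1C, subunits of the same enzyme, thus moved in opposite directions, with no overlap between groups for either.

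Gene length went along with these changes. The slope of a library's log2 CPM deviation per doubling of genomic gene length was 0.0274 to 0.0962 in the regrown libraries without doxycycline. It was -0.0386 to -0.0192 in regrown knockout libraries, -0.0492 to 0.0069 in parental ones without doxycycline and -0.0746 to 0.0506 in parental knockout ones. The regrown libraries without doxycycline thus overlapped neither of the groups they are compared with. POLR1A spans 85.7 kb and fell, while POLR1C spans 4.42 kb and rose, and over the 37 members the rho between length and change was -0.506 (all genes, -0.327). In RNA-seq of regrown over parental cells it was 0.361 (all genes, 0.215). For CSNK2B it was 0.102 (0.122) in KI-JK and 0.315 (0.041) in SU-DHL-1.

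**Figure D5:**
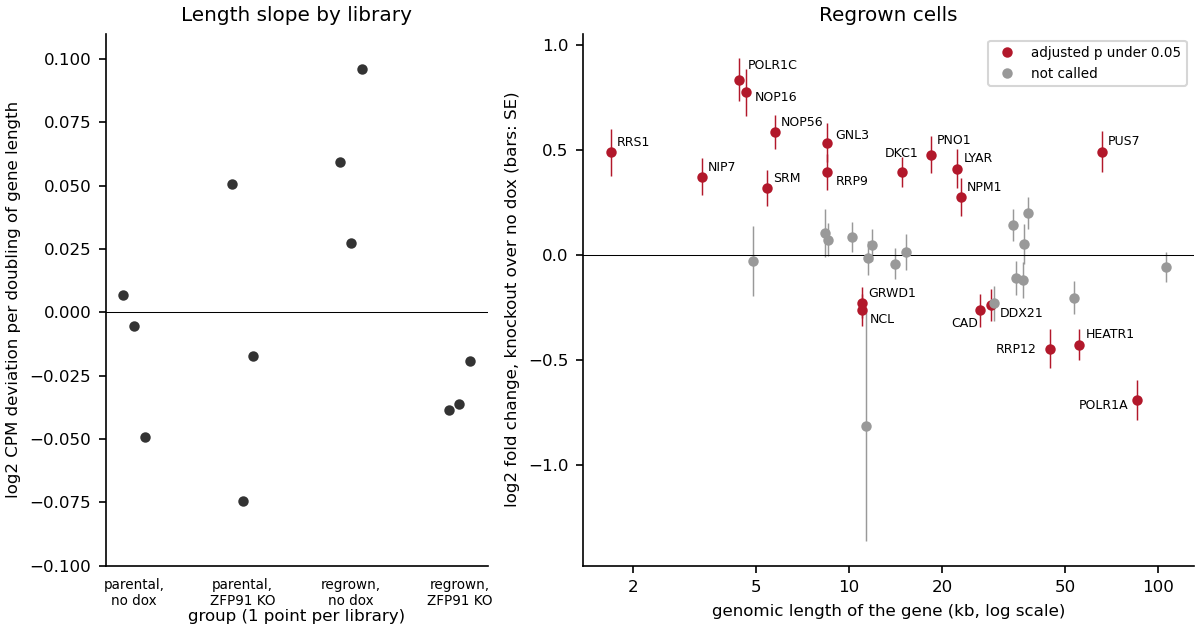
Left, slope of log2 CPM deviation per doubling of genomic gene length in each of the 12 libraries of the ZFP91 table, by group. Right, log2 fold change of each member with ZFP91 knockout in regrown cells (bars for SE) against gene length in kb on a log scale, called members in red. The 3 regrown libraries without doxycycline lie at 0.0274 or above and the regrown knockout libraries at -0.0192 or below, and the longest called member, POLR1A (85.7 kb), has the lowest called value, -0.69.

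With that slope as a covariate, chosen after the data were seen, the regrown knockout called 0 members and 0 genes at all, since slope and group nearly coincide and cannot be told apart with 3 libraries each. In parental cells, where they do not, the same covariate called 12 members higher, led by RRP12 (0.40, adjusted p = 8.05e-06), and 1 lower, ODC1 (-0.25, adjusted p = 4.16e-05), against 4.14% and 4.79% of 13354 genes. In RNA-seq of regrown over parental cells it left 4 members higher and 5 lower, against 10.9% and 9.47% of 13379 genes. RRP12, NOLC1, NOP56, TSR1, NOP16, POLR1C and PNO1 remained called in the same direction, and RRS1 and FBL were called higher in addition. The slopes of regrown and parental libraries without doxycycline did not overlap either, so slope and group cannot be fully told apart there. Ribosomal protein genes, most of them short, were called higher for 65 of 78 in the regrown knockout (16.3% of all genes), with MYC at 0.49 ± 0.09.

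The knockout response differed between regrown and parental cells for 8 members. It was higher in regrown cells for POLR1C, NOP16, PUS7 and GNL3 and lower for RRP12 (-0.87 ± 0.18, adjusted p = 0.0239), POLR1A (-0.85 ± 0.19), CAD and BOP1, against 4.47% and 5.33% of 14267 genes. With the replicate number as a block 5 were higher and 8 lower. Leaving out single libraries gave 0 to 8 higher and 0 to 9 lower, so this count rests on single libraries, and the length covariate gave 0 and 0, against 0.231% and 0.273% of genes.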

How the data were processed

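The values in the deposited tables are counts of reads per gene, whole numbers with no normalization by the authors. Per the submitters' processing notes, PRO-seq used cutadapt 1.14, Bowtie 1.2.2, featureCounts 1.6.2 and hg38, DGE used FastQC, Bowtie2 2.2.3, DESeq2 and hg19, and RNA-seq used hg38 with STAR 2.6.1d, edgeR 3.24.3 and DESeq2 1.20.0. The RNA-seq counting tool and use of strand are not given in the sources used here.

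Each of 13 comparisons, 3 of them interactions, was fitted with edgeR 4.0.16 in R 4.3.3 to the libraries of the groups compared. All genes that passed filterByExpr were tested (TMM, quasi-likelihood F test, two-sided, Benjamini-Hochberg over all genes tested). The SE was taken as the size of the log2 change over the root of its F value, and values rest on 3 libraries per group. The members, gene lists and tests were chosen with earlier results of these data known. Any member could be named, and from other lists up to 4 called genes per direction. Alternatives were DESeq2 1.42.0, other scalings and filters, a replicate block, 1 fit over all groups, each library left out, and, added after seeing the data, a length covariate. No replicates were duplicates (smallest chi-square per degree of freedom 1.34). The fit was tested on simulated data.

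Same-numbered libraries were checked for pairing. Regrown pools 1 to 3 carry their number in the labels, but in no comparison did every same-numbered pair correlate above 0.1. Gene positions and lengths come from the PRO-seq table (hg38).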

Additional observations from a re-analysis of the deposited data

Results flagged for a closer look

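The CSNK2B response differed between the lines for 34 members by the test of the difference itself (edgeR's quasi-likelihood interaction test, KI-JK minus SU-DHL-1, log2 scale). Among RNA polymerase I subunits the differences were 0.41 for POLR1A, 0.38 for POLR1B and 0.43 for POLR1C. The snoRNP group had 0.38 for NOP58, 0.32 for NOLC1, 0.48 for RRP9, 0.28 for DKC1 and 0.17 for NOP56. Nucleolar proteins had 0.49 for DDX21, 0.40 for NCL, 0.28 for NPM1, 0.40 for LYAR and 0.28 for GNL3. Small subunit factors had 0.63 for RRP12, 0.61 for UTP20, 0.43 for WDR43, 0.54 for BYSL, 0.39 for HEATR1, 0.38 for TSR1 and 0.38 for PNO1. Early and late large subunit factors had 0.61 for URB2, 0.48 for MRTO4, 0.51 for NOP16, 0.42 for RRP1B, 0.66 for RRS1 and 0.46 for NIP7. The same group had 0.37 for GRWD1, 0.34 for BOP1, 0.31 for PES1, 0.81 for PPAN and 0.26 for WDR12. SRM had 0.45, CAD 0.27 and PUS7 0.31.

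The ZFP91 knockout response differed between regrown and parental cells for 8 members by the same kind of test. The differences were -0.87 for RRP12, -0.85 for POLR1A, -0.52 for CAD, -0.49 for BOP1, 0.71 for POLR1C, 0.71 for NOP16, 0.57 for PUS7 and 0.55 for GNL3.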

How the results depend on the processing

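The 35 KI-JK calls were all kept in each of 13 alternatives, and 32 of the 34 calls for the difference between lines in each of 18. No result changed direction after being called. Library size alone gave 2 members higher in RNA-seq of regrown cells (shifting the median of all genes to -0.10), 2 lower for the difference in knockout response and 5 higher in KI-JK over SU-DHL-1. DESeq2 gave 1 higher in DGE of regrown cells, 9 lower for the difference in knockout response and 5 higher in KI-JK over SU-DHL-1. No filter gave 1 higher in the parental knockout, 4 lower in the regrown knockout and 5 higher in KI-JK over SU-DHL-1. One fit over all groups gave 2 higher in RNA-seq of regrown cells, 1 higher and 0 lower in DGE and 3 lower in the regrown knockout. The length covariate, chosen after seeing the data, gave 5 lower in RNA-seq of regrown cells, 12 higher and 1 lower in the parental knockout, and 0 higher and 0 lower in the regrown knockout and in the difference in knockout response.

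With the replicate number as a block, DGE of regrown cells had 3 lower, the difference in knockout response 8 lower and SU-DHL-1 with CSNK2B 2 higher and 1 lower, and no other count moved by over 1.5 times. In no comparison were all 3 correlations between same-numbered libraries over 0.1, though single pairs ranged from -0.435 (RNA-seq of regrown cells) to 0.583 (parental knockout). In KI-JK every library correlated best with its own number, but the lowest correlation was 0.039.

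Leaving out 1 library gave 3 to 8 higher and 0 to 4 lower in PRO-seq (3 without parental 2, 0 without parental 1, regrown 2 or regrown 3). RNA-seq of regrown cells had 2 to 6 higher (2 without parental 2) and 10 to 13 lower. DGE had 1 to 3 higher and 0 to 2 lower, lowest without any 1 parental library or regrown 2. The regrown knockout had 11 to 15 higher and 3 to 8 lower (3 without untreated 3, knockout 1 or knockout 2). The difference in knockout response had 0 to 8 and 0 to 9. KI-JK over SU-DHL-1 had 5 to 8 higher (5 without SU-DHL-1 empty vector 3) and 22 to 24 lower. The lenalidomide and parental knockout counts stayed at 0, SU-DHL-1 at 1 and 0, KI-JK at 35 and 0, and the difference between lines at 34 and 0. Without the shallowest DGE library, of 41571 counts, the parental lenalidomide comparison called 79 genes higher and 26 lower of 6227, against 39 and 10 of 5796 with it.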
